A study of Mus musculus with 13 samples.

Results

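Imprinted genes of growth control can be transcribed mainly or only from the copy inherited from one parent. The 10 genes described here were Igf2, Airn, Peg3, Mest, Slc38a4 and Impact, which are known as paternally expressed, and H19, Igf2r, Grb10 and Phlda2, which are known as maternally expressed. They were chosen by name, as the probes whose annotation gave exactly one of these gene symbols. The 10 genes were measured by 11 probes, 2 of them for Grb10, out of 9669 genes with a single symbol and 20205 probes in all.

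Mouse total RNA was compared on 13 two-colour arrays that each carried an NT1 source in one dye and a TBV source in the other. The series title places a homozygous Sall4 mutation beside NT1, and Sall4 codes for a zinc finger protein that controls transcription in pluripotent cells. The labels give no tissue, strain, age or agent, no count of clones or animals, and no genotype for TBV, although a mouse embryonic stem cell line is known as TBV2. The source pairs were NT1 at passage 14 with TBV at passage 13 (NT1p14 with TBVp13, the p14 pair, 5 arrays), NT1 at passage 12 with TBV at passage 12 (NT1p12 with TBVp12, the p12 pair, 4 arrays), NT1 1 with TBV2 (the TBV2 pair, 2 arrays, no passage given) and NT1 at passage 12 with TBV at passage 13 (NT1p12 with TBVp13, the repeat pair, 2 arrays). The p and its number were read as the passage. The first 3 pairs share no RNA source and gave n = 3, while the fourth repeats sources of 2 others and is given beside them. Arrays of one pair repeat the same RNAs, so an array is not a biological replicate, and the labels do not tell whether the pairs come from separate cultures.

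Imprinting marks are set in the germ line as DNA methylation of control regions and can keep one parental copy silent. Many paternally expressed genes promote fetal and placental growth and many maternally expressed genes restrain it. Igf2 encodes a growth factor, H19 is a long noncoding RNA that shares enhancers with Igf2, Igf2r encodes the receptor that clears the growth factor, and Airn is the noncoding RNA that silences the paternal copy of Igf2r. Cultured embryonic stem cells can lose or gain imprints with passage. The arrays measured RNA of both copies together and could not tell the alleles apart. Whether the known parental class of each gene holds in these cells was thus not measured.

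MicroRNAs known from 3 of the genes were looked up by name. They lie within the bounds of these genes in the mouse gene table of RefSeq (GRCm38.p6). They are shown because the values of the 3 host genes are described below. The other members were not searched for microRNAs. The mature sequences follow, 5′ to 3′, with the seed (bases 2 to 8) in capitals.
mmu-miR-675-5p: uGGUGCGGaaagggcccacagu
mmu-miR-675-3p: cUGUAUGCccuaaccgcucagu
mmu-miR-335-5p: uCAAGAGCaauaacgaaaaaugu
mmu-miR-335-3p: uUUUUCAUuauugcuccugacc
mmu-miR-483-5p: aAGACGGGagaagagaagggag
mmu-miR-483-3p: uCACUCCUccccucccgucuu
The miR-675 pair lies within H19, the miR-335 pair within Mest and the miR-483 pair within Igf2. The 6 mature sequences had 6 different seeds. The microRNAs themselves were not measured.

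Promoter windows of the 250 bases before the annotated start were available for 8 of the 10 genes (16 windows), from the RefSeq table of the same build. The windows of Peg3 and of the most upstream Slc38a4 start are shown because these protein-coding genes kept one sign in all 3 independent pairs. CG dinucleotides, the sites that carry DNA methylation, are in capitals, and both are read on the minus strand.
Peg3, chr7:6730420-6730669: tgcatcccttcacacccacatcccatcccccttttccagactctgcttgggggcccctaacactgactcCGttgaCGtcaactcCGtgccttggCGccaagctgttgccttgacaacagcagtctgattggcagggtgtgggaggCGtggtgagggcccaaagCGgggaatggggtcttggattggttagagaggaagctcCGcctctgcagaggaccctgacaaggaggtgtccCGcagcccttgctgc
Slc38a4, chr15:97055957-97056206: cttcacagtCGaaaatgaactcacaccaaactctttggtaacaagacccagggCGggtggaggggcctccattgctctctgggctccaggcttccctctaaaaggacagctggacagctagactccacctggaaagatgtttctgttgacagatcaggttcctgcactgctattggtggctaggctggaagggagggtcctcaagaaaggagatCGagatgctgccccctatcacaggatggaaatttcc
The Peg3 window held 8 CG dinucleotides, a number reached by 43% of the 32851 promoter windows in the table. The Slc38a4 window held 3, reached by 71% of them. Over the 16 windows of the 8 genes the number ran from 1, in an Igf2 window, to 40, in a Grb10 window, with a median of 8 against 6 over all windows. The AT-rich motif ATATT, searched on both strands, was found in the Airn window only, that is in 1 of 16 windows against 23.3% of all windows. No methylation was measured.

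All values below are log2 ratios of NT1 over TBV after centring each array on its median, and the value of a pair is the mean of both dye orientations. Reading the values as the dye Cy5 over Cy3 is an assumption, so the direction of all signs together is not settled. The direction of single pairs is not settled either, since the values of the p14 pair and of the p12 pair correlated at r = -0.50 across 15973 probes. Results that rest on this are therefore also given with one pair turned. Many deposited values had lost their decimals, and on arrays 4 and 5 of the p14 pair whole numbers made up 29.4% and 39.2% of the values, so that a 0 or a 1 stands for a range. On the arrays of the repeat pair they made up 40.4% and 40.3%, and its values of 0 stand for a range too. Of the 11 probes, those of H19, Igf2r, Peg3 and Phlda2 and the first of Grb10 had no whole number, and 10 had a value on all 13 arrays. The array SD of all probes was 1.00 and 1.14 on those 2 arrays and between 0.335 and 0.807 on the other 11.

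The first question was whether the growth-control genes differed between NT1 and TBV across source pairs. H19 and Peg3 lay above 0 in all 3 independent pairs, and Slc38a4 and the second Grb10 probe lay below 0 in all 3. None of the 11 probes passed the threshold of an adjusted p under 0.05 in limma (0 of 15973 probes passed, 0%), and 1 of the 11, Slc38a4, had an unadjusted p under 0.05, against 1.03% of all probes. The other 7 probes changed sign between pairs. Of all probes, 9.05% lay above 0 in all 3 pairs and 5.33% below 0, and the members' 2 of 11 in each direction are a description of a short list. With only the arrays that had NT1 in Cy5, 5 members lay above 0 in all 3 pairs and 0 below, and with only those that had TBV in Cy5, 3 lay above and 3 below. With the p14 pair turned, 0 members lay above 0 in all 3 pairs and 2 below. With the p12 pair turned, 3 lay above and 1 below.

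H19, the maternally expressed noncoding RNA, had log2 ratios of 0.32, 0.51, 0.58, 0.85 and 0.39 on the 5 arrays of the p14 pair. It had 0.16, 0.11, 0.42 and -0.29 on the 4 arrays of the p12 pair, 0.43 and 0.36 for the TBV2 pair, and 0.42 and 0.21 for the repeat pair. The values were above 0 on 12 of 13 arrays, with array 4 of the p12 pair as the exception, and the arrays of the first pair overlapped those of the second. The mean over the 3 pairs was 0.34 ± 0.22 (SD, n = 3), with an unadjusted p of 0.061 and an adjusted p of 1.00 in limma. The 2 dye orientations gave means of 0.37 with NT1 in Cy5 and 0.30 with TBV in Cy5. With the p14 pair turned, the mean was -0.0093.

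Peg3, a paternally expressed zinc finger gene, had 0.026, -0.046, 0.52, 0.13 and 0.56 on the arrays of the p14 pair. It had -0.058, 0.11, 0.65 and 0.29 for the p12 pair, 0.27 and 0.55 for the TBV2 pair, and -0.20 and 0.11 for the repeat pair. In all 4 pairs each array with TBV in Cy5 lay above each array with NT1 in Cy5. The 3 pair values of 0.29, 0.25 and 0.41 had a mean of 0.31 ± 0.08 (SD, n = 3; limma, unadjusted p = 0.051, adjusted p = 1.00), while the fourth pair was at -0.05. The mean was 0.12 with the p14 pair turned and 0.15 with the p12 pair turned. The mean was 0.11 with NT1 in Cy5 and 0.52 with TBV in Cy5. Peg3 was 1 of 2 members with a dye term past the threshold, at -0.21 ± 0.05 (SE; limma, adjusted p = 0.045), where 5.75% of all probes had one.

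Slc38a4, a paternally expressed amino acid transporter of the placenta, had 0, 0, -1, 0 and -1 on the arrays of the p14 pair and -1 on all 4 arrays of the p12 pair. It had -0.091 and -0.50 for the TBV2 pair, and -1 and 0 for the repeat pair. No array was above 0, 9 of 13 were below 0, and the sizes are coarse, as 11 of the 13 values had no decimals. The mean over the 3 pairs was -0.60 ± 0.36 (SD, n = 3; limma, unadjusted p = 0.018, adjusted p = 1.00). The p12 pair alone gave -1 ± 0.20 (SE, array fit; limma, adjusted p = 0.051). With the sign of that pair turned, the mean over pairs was 0.07.

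Grb10, which encodes an adapter that restrains insulin and insulin-like growth factor receptor signalling, had probes that disagreed. Its first probe had -0.11, 0.53, 0.53, 0.47 and 0.015 on the arrays of the p14 pair, -0.71, -0.16, -0.018 and -0.19 for the p12 pair, -0.22 and -0.73 for the TBV2 pair, and 0.19 and 0.41 for the repeat pair. Its second probe had -0.53, -0.23, -0.21, -1 and -1 for the p14 pair, 0.27, 0.087, -0.42 and -0.46 for the p12 pair, -0.14 and -0.21 for the TBV2 pair, and 0 and 0 for the repeat pair. In the p14 pair the 2 probes stood on opposite sides of 0, at pair values of 0.29 and -0.60, while both were below 0 in the next 2 pairs. The second probe had 4 whole numbers and the first had none. Which transcripts each probe detects is not known here, so no direction is given for Grb10.

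**Figure D1:**
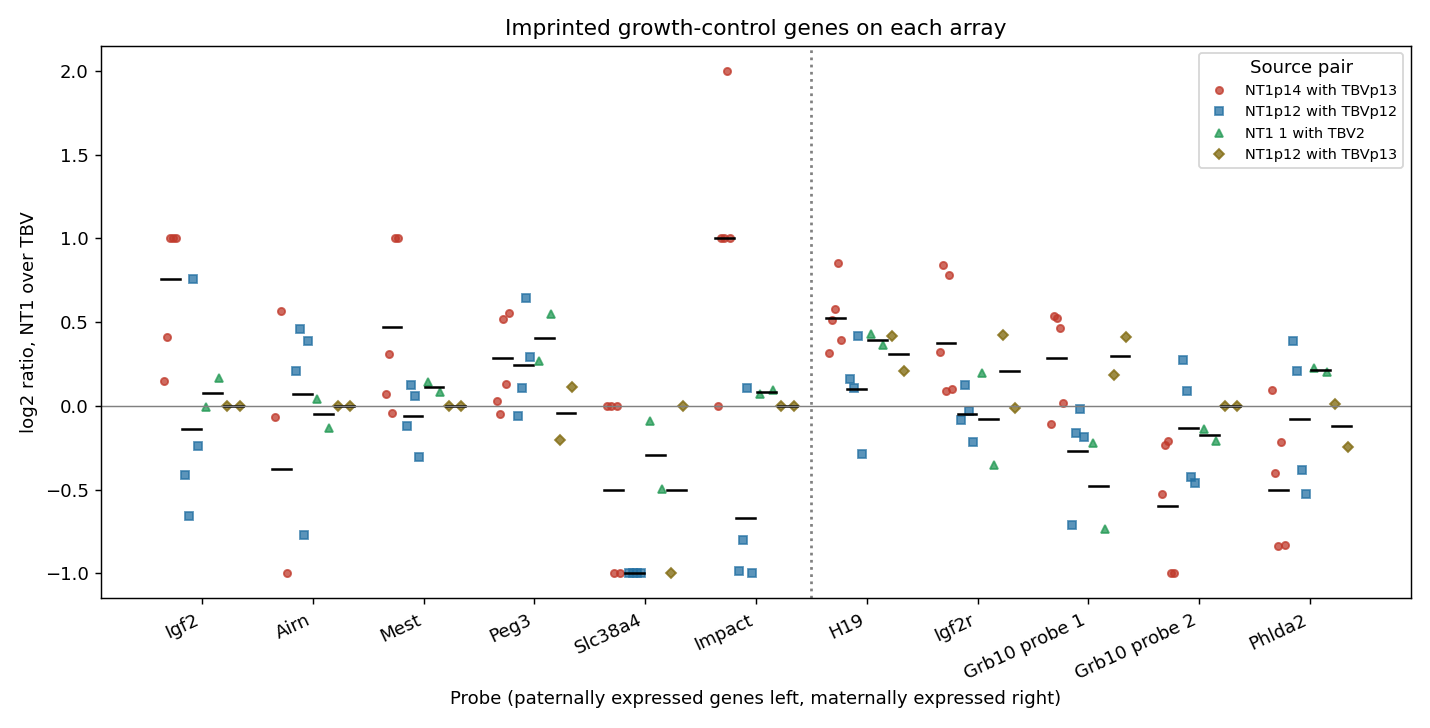
Log2 ratio of NT1 over TBV for the 11 probes of the 10 imprinted growth-control genes on each array. Points are arrays, coloured by source pair, and black bars are the pair values. The H19 points lie above 0 on 12 of 13 arrays, no Slc38a4 point lies above 0, and the Impact and Igf2 points of the p14 pair lie mostly above those of the p12 pair.

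The second question was whether the RNAs of a single pair differed beyond the spread between repeat arrays, which compares preparations and not cell lines. In the p14 pair, 7 of the 11 member probes passed the threshold in limma, 5 higher and 2 lower in NT1. The background in this pair was high: 9.24% of 14299 probes were called higher, 9.32% lower and 18.6% in either direction. The calls were lost without array 4 or array 5 of the pair, the 2 arrays with the widest values. Without both, the fitted values of H19, Igf2r and Phlda2 were 0.46, 0.36 and -0.46. Without array 4, 0 of 11 member probes passed, and without array 5 or both, 0 of 10, since Airn could not be fitted there. Over all probes 50, 15 and 3 passed in these fits. At an unadjusted p under 0.05 there were 8, 8 and 7 member probes, where 29.9%, 26.9% and 17.3% of all probes had such a p, against 9 of 11 and 39.4% with all arrays. Without array 2, 3 of the 11 passed, and without the dye term 4 did.

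**Figure D2:**
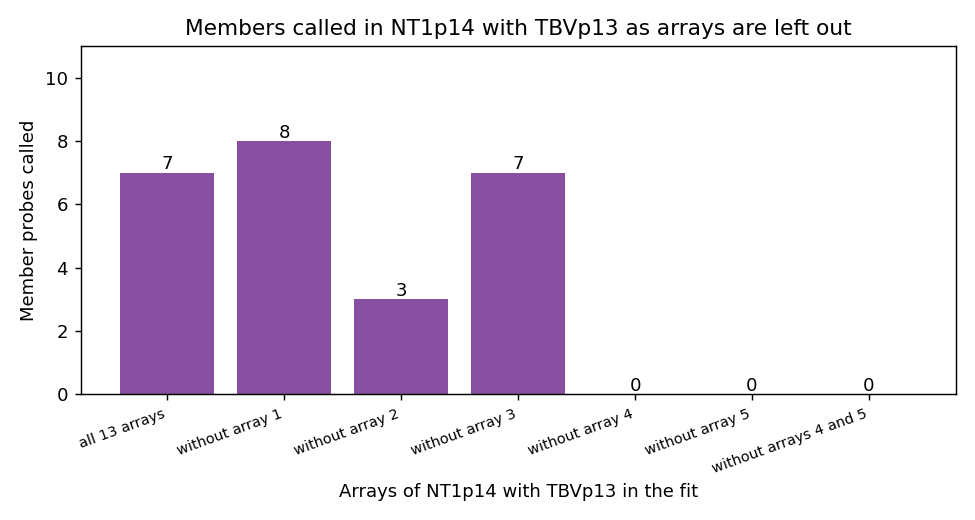
Number of member probes that passed an adjusted p of 0.05 in the p14 pair with all 13 arrays and with single arrays of that pair left out. The count was 7 with all arrays, 3 without array 2, and 0 without array 4, without array 5 or without both. The fits hold 11 member probes, or 10 where array 5 is left out, since Airn is not fitted there.

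Igf2, the fetal growth factor, had 0.15, 0.41, 1, 1 and 1 on the arrays of the p14 pair, all above 0. It had -0.41, -0.66, 0.76 and -0.24 for the p12 pair, -0.0050 and 0.16 for the TBV2 pair, and 0 and 0 for the repeat pair. The fitted value in the first pair was 0.76 ± 0.16 (SE; limma, adjusted p = 0.023), and 0.60 (adjusted p = 0.19) without arrays 4 and 5. In the second pair it was -0.14 ± 0.18 (SE, adjusted p = 0.72), with array 3 apart from the other 3 in sign. Over the 3 pairs the mean was 0.23 ± 0.47 (SD, n = 3).

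H19, which lies beside Igf2 in the genome, was also higher in NT1 in the p14 pair, at 0.52 ± 0.11 (SE; limma, adjusted p = 0.023) and 0.46 without arrays 4 and 5 (adjusted p = 0.19). In the p12 pair it was 0.10 ± 0.12 (SE, adjusted p = 0.70). These neighbours are known to be read from opposite parental copies. The Igf2 pair value minus the H19 pair value was 0.24 in the p14 pair, -0.24 in the p12 pair, -0.31 in the TBV2 pair and -0.31 in the repeat pair. As a pair value Igf2 was thus above H19 in the first pair and below it in the other 3, with no test of these differences. On the p14 arrays the difference was -0.17, -0.10, 0.42, 0.15 and 0.61. It was above 0 there only where the Igf2 value was a whole 1, which stands for a range. The p12 arrays were split, at -0.58, -0.77, 0.34 and 0.05, and the Igf2 values of the repeat pair were whole numbers, 0 and 0.

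Igf2r had 0.32, 0.84, 0.091, 0.78 and 0.10 in the p14 pair, -0.081, 0.12, -0.028 and -0.22 in the p12 pair, 0.20 and -0.35 in the TBV2 pair, and 0.42 and -0.010 in the repeat pair. The first pair's values were split by dye: the 3 arrays with NT1 in Cy5 had the 3 highest. The fitted value there was 0.39 ± 0.10 (SE; limma, adjusted p = 0.033), and 0.36 (adjusted p = 0.22) without arrays 4 and 5. In the second pair it was -0.05 ± 0.11 (SE, adjusted p = 0.85).

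Airn, which starts within Igf2r and is transcribed from the other strand, had values on 11 arrays. They were -0.065, 0.57 and -1 on arrays 1, 4 and 5 of the p14 pair, 0.21, 0.46, -0.77 and 0.39 for the p12 pair, 0.041 and -0.13 for the TBV2 pair, and 0 and 0 for the repeat pair. The values of each of the first 2 pairs lay on both sides of 0, and the fitted values were -0.26 ± 0.25 (SE; limma, adjusted p = 0.46) and 0.07 ± 0.22 (SE, adjusted p = 0.90). Igf2r minus Airn was 0.75, -0.12, -0.03 and 0.21 in the 4 pairs in the order above. Because the genes overlap and the strand that each probe detects is not given in the sources used here, signal from one could count for the other.

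Phlda2, a maternally expressed restraint on placental growth, was lower in NT1 in the p14 pair, with 0.098, -0.40, -0.83, -0.22 and -0.83 on its arrays. It had 0.39, 0.21, -0.38 and -0.53 in the p12 pair, 0.22 and 0.20 in the TBV2 pair, and 0.011 and -0.25 in the repeat pair. The array values followed the dye orientation: within the first 2 pairs every array with TBV in Cy5 was below every array with NT1 in Cy5. The dye term was 0.26 ± 0.07 (SE; limma, adjusted p = 0.048), and next to it the fitted value of the first pair was -0.49 ± 0.11 (SE, adjusted p = 0.024), or -0.46 (adjusted p = 0.19) without arrays 4 and 5. Without the dye term the value was -0.44 with an adjusted p of 0.10.

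Impact, a paternally expressed inhibitor of the amino acid sensing kinase Gcn2, had 0, 1, 1, 2 and 1 in the p14 pair and -0.99, -0.80, 0.11 and -1 in the p12 pair. It had 0.071 and 0.093 in the TBV2 pair and 0 and 0 in the repeat pair. In these coarse values, 8 of 13 whole, the first pair was at or above 0 and the second below 0 on 3 of 4 arrays, and the 2 pairs overlapped at array 1 of the first and array 3 of the second. The fitted values were 1.01 ± 0.23 (SE; limma, adjusted p = 0.025), or 0.72 (adjusted p = 0.19) without arrays 4 and 5, and -0.67 ± 0.26 (SE, adjusted p = 0.24).

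Mest, a paternally expressed gene of embryonic mesoderm, had 0.074, 0.31, -0.041, 1 and 1 in the p14 pair, -0.12, 0.12, 0.061 and -0.31 in the p12 pair, 0.14 and 0.086 in the TBV2 pair, and 0 and 0 in the repeat pair. The 2 high values came from arrays 4 and 5. The fitted value of the first pair was 0.46 ± 0.16 (SE; limma, adjusted p = 0.059) and was 0.10 without those arrays (adjusted p = 0.68). Peg3 in this pair was 0.28 ± 0.08 (SE; adjusted p = 0.044), or 0.23 (adjusted p = 0.28) without those arrays. The second Grb10 probe was -0.61 ± 0.14 (SE; adjusted p = 0.026), or -0.36 (adjusted p = 0.25) without them. Slc38a4 was -0.43 ± 0.18 (SE; adjusted p = 0.10), and the first Grb10 probe was 0.29 ± 0.14 (SE; adjusted p = 0.14).

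In the other pairs 0 of the 11 member probes passed the threshold in limma. The background there was 0.685% of probes in the p12 pair, 0.021% in the TBV2 pair and 0.00699% in the repeat pair. The smallest adjusted p among them was that of Slc38a4 in the p12 pair, given above, which passed in 7 of 17 alternatives, at 0.020 without arrays 4 and 5 of the p14 pair. At an unadjusted p under 0.05 in the p12 pair were also Peg3, at 0.25 ± 0.09 (SE; limma, unadjusted p = 0.022), and Impact (unadjusted p = 0.025). In the TBV2 pair these were H19, at 0.39 ± 0.18 (SE; limma, unadjusted p = 0.045), and Peg3, at 0.41 ± 0.13 (SE; limma, unadjusted p = 0.0098). In the repeat pair 0 of the 11 did so.

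**Figure D3:**
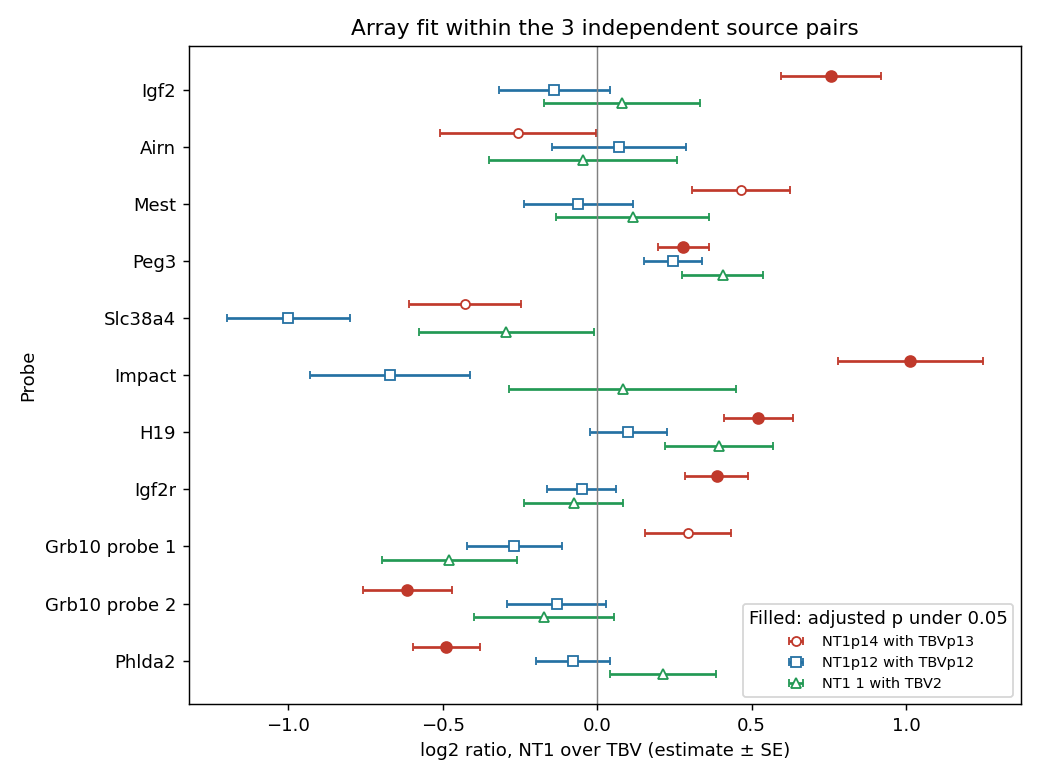
Fitted log2 ratio of NT1 over TBV (estimate ± SE, limma array fit) of each member probe in the 3 independent source pairs. Filled symbols passed an adjusted p of 0.05, which 7 probes did in the p14 pair and 0 did in the other 2 pairs. Peg3 and H19 lie right of 0 in all 3 pairs and Slc38a4 left of 0.

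The third question was where the p14 pair and the p12 pair differed from each other. Igf2 and Impact were called, both above 0, which is 2 of 11 probes against 12.7% of all probes called above 0 and 25.5% called in either direction. The difference, first pair minus second, was 0.90 ± 0.24 (SE; limma, adjusted p = 0.025) for Igf2 and 1.68 ± 0.35 (SE; limma, adjusted p = 0.014) for Impact. Without arrays 4 and 5 it was 0.74 (adjusted p = 0.083) for Igf2 and 1.39 (adjusted p = 0.031) for Impact. With the p12 pair turned it was 0.62 (adjusted p = 0.48) for Igf2 and 0.34 (adjusted p = 0.79) for Impact. Peg3 had the smallest difference of the 11 probes, at 0.03 ± 0.12 (SE; adjusted p = 0.85). The signs of these 2 pairs were opposite in 6 of the 11 member probes, against 71.3% of all probes. The 6 were Igf2, Igf2r, Airn, Mest, Impact and the first Grb10 probe.

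The parental classes were then set against each other, with the probes of a gene averaged first. The paternally expressed genes had a mean log2 ratio of 0.27 in the p14 pair, -0.26 in the p12 pair, 0.06 in the TBV2 pair and -0.09 in the repeat pair. The maternally expressed genes had 0.06, -0.06, 0.05 and 0.14 in the same order. The paternal mean was above 0 on 5 of 5 arrays of the first pair, from 0.03 to 0.78, and below 0 on 4 of 4 arrays of the second, from -0.40 to -0.03. These means lean on a few coarse probes and do not show a shift of the class. As pair values, 4 of the 6 paternal genes were above 0 in the first pair and 2 in the second, with medians of 0.38 and -0.10. The largest were Impact (1) and Igf2 (0.76) in the first pair and Slc38a4 (-1) and Impact (-0.67) in the second. The maternal mean lay on both sides of 0 in both pairs. Paternal minus maternal was 0.21, -0.20, 0.01 and -0.23 in the 4 pairs, and its mean over the 3 independent pairs was 0.01 ± 0.21 (SD, n = 3), smaller than the spread between pairs. No test was made of these means, since the members were chosen with results known.

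Within each class the genes did not move as one. Over the 3 pairs, 4 of 6 paternally expressed genes and 2 of 4 maternally expressed genes had a mean above 0. The paternal means ran from -0.60 for Slc38a4 to 0.31 for Peg3, and the maternal means from -0.23 for Grb10 to 0.34 for H19. In the p14 pair the paternal values ran from -0.50 for Slc38a4 to 1 for Impact and the maternal values from -0.50 for Phlda2 to 0.52 for H19. The median over the 11 probes was 0.29, -0.08, 0.08 and 0 in the 4 pairs, where the median of all probes tested was 0, 0.04, -0.0021 and 0.

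**Figure D4:**
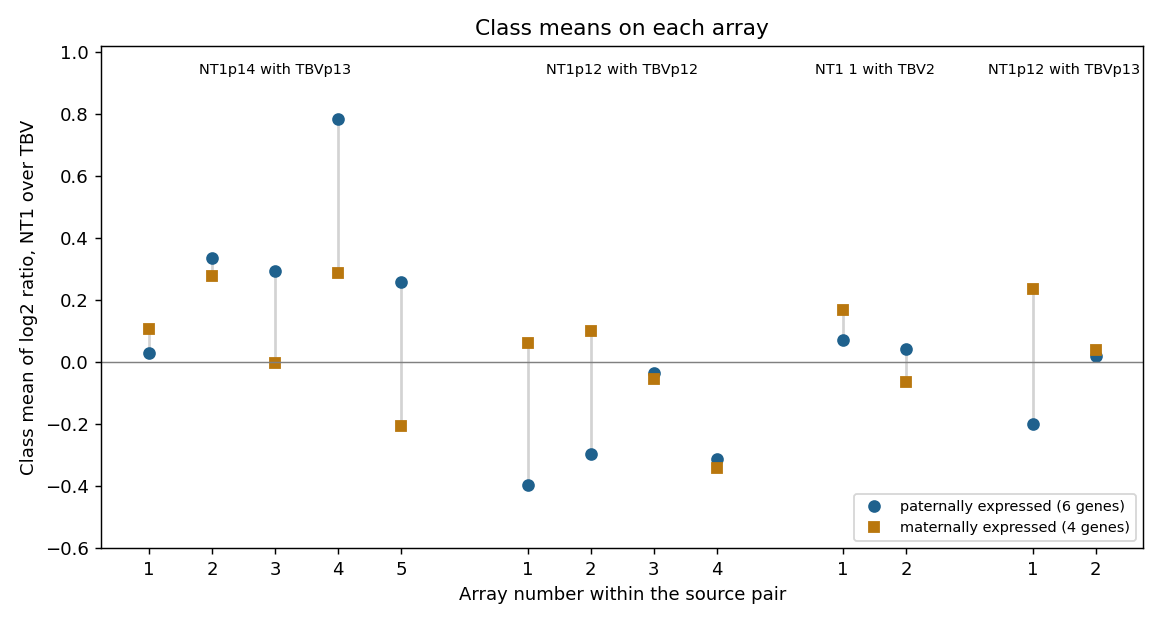
Mean log2 ratio of NT1 over TBV of the 6 paternally expressed (circles) and 4 maternally expressed genes (squares) on each of the 13 arrays, joined by a line per array. The circles are above 0 on all 5 arrays of the p14 pair and below 0 on all 4 of the p12 pair, and the squares lie on both sides of 0 in both pairs. As pair values, the 6 paternally expressed genes themselves lay on both sides of 0 in both pairs.

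Genes around the members were read from 3 further lists. Of other imprinted genes, 16 of 69 were measured, by 18 probes. None of them passed across pairs. In the p14 pair, 0 were higher and 2 lower: Osbpl5, at -0.57 ± 0.14 (SE; limma, adjusted p = 0.026), and Tspan32, at -0.55 ± 0.15 (SE; adjusted p = 0.035). Between the p14 pair and the p12 pair, Ascl2 (1.35) and Atp10a (1.28) were called above 0 and Osbpl5 (-1.05), Tspan32 (-0.76) and the cell cycle inhibitor Cdkn1c (-0.53) below 0. These are 2 probes above and 3 below 0 of the 16 tested. Of all probes, 12.7% were called above 0 and 25.5% in either direction, and these counts depend on the sign of the p12 pair, as given below.

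Of the insulin-like growth factor axis, 17 of 30 genes were measured, by 22 probes, and none passed across pairs. In the p14 pair, 3 probes were higher: Lin28a, an RNA-binding protein of pluripotent cells, at 0.66 ± 0.15 (SE; limma, adjusted p = 0.025), the receptor substrate Irs4, at 0.63 ± 0.15 (SE; adjusted p = 0.028), and the binding protein Igfbp4, at 0.51 ± 0.11 (SE; adjusted p = 0.022). The binding protein Igfbp1 was lower, at -0.52 ± 0.15 (SE; adjusted p = 0.042). The receptor Igf1r had probes at 0.28 and 0.02 in this pair, and the ligand Igf1 had -0.01, none of them called. Between the pairs M6pr (1.42), Lin28a (1.16) and Irs4 (1.04) were called above 0 and Igfbp1 (-0.81) and Pik3r1 (-0.48) below 0. These are 3 probes above and 2 below 0 of the 20 tested, against 25.5% of all probes called in either direction.

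Of genes that set or keep imprints, 13 of 28 were measured, by 17 probes, and none passed across pairs. Zfp57, a zinc finger protein that protects imprints after fertilisation, was lower in NT1 in both larger pairs, at -0.46 ± 0.13 (SE; limma, adjusted p = 0.037) in the p14 pair and -0.89 ± 0.14 (SE; adjusted p = 0.025) in the p12 pair. Dnmt3l, a cofactor of de novo DNA methylation, was at 1.17 ± 0.28 (SE; adjusted p = 0.027) and 0.50 ± 0.31 (SE; adjusted p = 0.43). Ctcf, which binds the insulator between H19 and Igf2, was at 0.39 ± 0.12 (SE; adjusted p = 0.042) and -0.40 ± 0.13 (SE; adjusted p = 0.16). Between these pairs Uhrf1 (1.54), Ctcf (0.80) and Mbd3 (0.56) were called above 0 and Cxxc1 (-0.42) below 0. These are 3 probes above and 1 below 0 of the 14 tested, against 25.5% of all probes called in either direction. In the p14 pair 9 of the 50 probes tested from these 3 lists were called, a share near the 18.6% of all probes. Without array 4, 0 of 50 were called (limma; 17 at an unadjusted p under 0.05), and 0 of 43 without array 5 or without both (12 and 9). The Zfp57 call in the p12 pair was made in each of these fits, which left out no array of that pair. As single arrays of any pair were left out, 0 to 388 probes passed in the p12 pair. The Zfp57 call there thus did not hold in all fits.

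Markers of other cell types were set beside the members. Fibroblast feeder markers (12 of 20 genes measured) had a median of 0.66 in the p14 pair, -0.49 in the p12 pair and -0.63 in the TBV2 pair. These medians are over the 16 probes with a value in all 3 pairs. Array medians, over 21 probes, ran from 0 to 1, from -0.87 to -0.06 and from -0.55 to -0.48. In the first pair 7 of the 15 probes tested were called higher and 0 lower, against 9.24% of all probes called higher. Among the 7 were Col3a1 at 0.90 and Acta2 at 1.19, while Fap (-0.36), Thy1 (-0.20) and Col6a1 (-0.10) were below 0 and not called. Over all probes, 50 calls were left in this pair without array 4, 15 without array 5 and 3 without both. The signs of the first 2 pairs were opposite in 6 of the 11 member probes, against 71.3% of all probes. In the TBV2 pair, where the feeder median was below 0, 4 of 6 paternally and 2 of 4 maternally expressed genes were above 0. Embryonic stem cell markers (9 of 13 measured) had medians of -0.25, -0.59 and -0.16, and 6 of them were below 0 in all 3 pairs, as Slc38a4 and 5.33% of all probes were. With the p14 pair turned 1 of the 9 was below 0 in all 3, and with the p12 pair turned 0 were. Trophoblast markers (4 of 12) had medians of 0.26, 0.46 and 0.11, and endoderm markers (8 of 15) 0.16, 0.0015 and 0.06. The part of these cell types in the members' values was not tested. In such bulk RNA fewer cells of a type and less RNA per cell cannot be told apart, and the ratios carry no level by which a marker could be called absent.

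**Figure D5:**
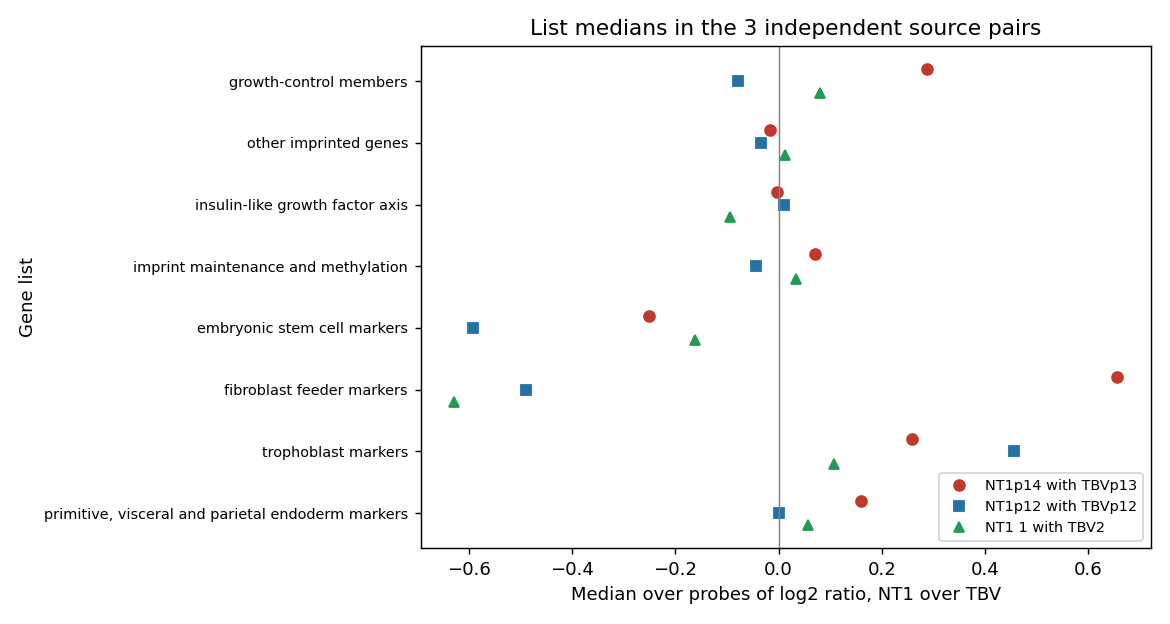
Median log2 ratio of NT1 over TBV over the probes of each gene list in the 3 independent source pairs. The growth-control members lie at 0.29, -0.08 and 0.08, the fibroblast feeder markers at 0.66, -0.49 and -0.63, and the other imprinted genes at -0.016, -0.034 and 0.012.

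The genes most like each member other than Airn, which had values on 11 arrays, over the 13 arrays, by Pearson correlation among 6464 named probes, are a description only, since arrays share 4 source pairs and their unequal spread. Impact was most like Usp2 and Carlr (both 1.00), whose values are also coarse. Igf2 was most like Vdac2 (0.98) and Zfp207 (0.98), H19 like Psmb4 (0.94) and Uap1l1 (0.93), and Peg3 like Slc66a1 (0.93) and Cask (0.93). Igf2r was most like Iqgap1 (0.96) and App (0.95), and Mest like Ccdc93 (0.96) and Psap (0.96). Of the 10 probes compared, Slc38a4 had the lowest likeness, to Prickle1 (0.84) and Utp25 (0.84). Phlda2 was most like 4930442L01Rik (0.93) and Polr2f (0.93). The first Grb10 probe was most like Ttpal (0.91) and Itgb1 (0.90) and the second like Gkap1 (0.94) and Aass (0.91), so that the 2 Grb10 probes shared no neighbour. Other neighbours were coarse too: of 13 values, 11 were whole for Psmb4, 8 for Uap1l1, 12 for Ttpal and 11 for Prickle1. Vdac2, Zfp207, Ccdc93, Psap and Gkap1 had 4 or 5 whole values.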

How the data were processed

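The deposited values, 1 for each probe on each array, were treated as the authors' log2 ratio of the 2 channels. The log base, the numerator and the authors' normalisation are not given in the sources used here, and the dyes come from the labels. Probes were named through the platform annotation of GEO: 11723 of 20205 had 1 symbol, 806 several and 7676 none. Per array, 14314 to 18381 probes had a value, and the number of arrays limits the precision.

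Each array was centred on its median. Arrays with TBV in Cy5 (6 of 13) were turned, and a pair's value was the mean of its 2 orientations. Pair values were tested against 0 with limma 3.58.1 in R 4.3.3 (15973 probes, n = 3). A second limma fit on the 13 arrays had 4 pair coefficients and a dye term (14299 probes, 8 residual degrees of freedom), and the difference of the first 2 pairs was a contrast in it. Tests were two-sided with Benjamini-Hochberg adjustment over all probes and a threshold of 0.05. The code of the fits was run on simulated data with independent pairs, large changes and no lost decimals. That setting differs from these data, so it checks the code and not the results. Figures used matplotlib in Python.

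Members, gene lists and tests were chosen with earlier results of these data known. All members are named; from the 3 further lists, each gene called in a test is named, and other examples were chosen after their values were seen. Alternatives covered dye orientation, centring, scaling, the sign of a pair, the replicate unit and leaving out pairs or arrays.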

Additional observations from a re-analysis of the deposited data

Results flagged for a closer look

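Of the member probes, 2 had effects that differed between source pairs by a test of the difference itself, which is 2 of 11 against 25.5% of all probes. The Igf2 log2 ratio of NT1 over TBV was higher in the p14 pair than in the p12 pair by 0.896 on the log2 scale (limma, adjusted p = 0.025), with 5 of 5 arrays above 0 in the first pair and 3 of 4 below 0 in the second. The adjusted p ran from 0.0077 to 0.48 over its alternatives. That of Impact was higher by 1.68 (limma, adjusted p = 0.014), with 4 of 5 arrays above 0 in the first pair and 3 of 4 below 0 in the second, and its adjusted p ran from 0.0034 to 0.79. The highest p of both came from turning the sign of the p12 pair. The pairs differ in the NT1 source and its passage, in the TBV source and its passage, and in the fibroblast feeder markers. The repeat pair shares its NT1 source with the p12 pair and its TBV source with the p14 pair. Its Igf2 and Impact values were 0 on both arrays, which stand for a range. The part of each source and of the feeder markers in these differences was not tested. In 27 groups of 4 or 5 arrays, for member probes and class means, 0 had an array standing apart from the rest by Dixon's test. The group of Slc38a4 in the p12 pair, at -1 on all 4 arrays, is among them but had no range to test. The test looks for a single array. It cannot flag 2 arrays that share a value, as Mest had on arrays 4 and 5 of the p14 pair.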

How the results depend on the processing

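Each array value is already a ratio of an NT1 to a TBV source, and the test across pairs used 1 value per source pair. Arrays of different source pairs could not be matched to each other, because the array numbers were given in accession order. Across pairs 0 probes passed in every alternative, except 2 in the fit on all 13 arrays with source pairs as random blocks (limma). That fit blocks the values before arrays are turned, so its block term cannot hold an NT1 effect of a pair. Its correlation within pairs was -0.17, and it in effect counts repeat arrays as replicates. In the main test across pairs 164 probes had an unadjusted p under 0.05 (limma). The count of members above 0 in all 3 pairs was 5 with NT1 in Cy5 only, 0 with the p14 pair turned and between 1 and 4 when an array was left out. The count below 0 was 0 with NT1 in Cy5 only and 1 with the p12 pair turned. With NT1 in Cy5 only the mean was -0.0074 for Igf2, 0.21 for Airn and 0.12 for Phlda2, and with TBV in Cy5 only it was -0.13 for Igf2r. The first Grb10 probe was at 0.014 in the random block fit. With the p14 pair turned the means were -0.27 for Igf2, -0.0093 for H19, -0.17 for Igf2r, 0.13 for Airn, 0.10 for the second Grb10 probe, 0.21 for Phlda2, -0.14 for Mest and -0.53 for Impact. With the p12 pair turned they were 0.025 for the first Grb10 probe and 0.069 for Slc38a4. Leaving out a pair or an array gave -0.030 to 0.42 for Igf2, -0.063 to 0.16 for Igf2r, -0.21 to 0.012 for Airn, -0.37 to 0.0081 for the first Grb10 probe, -0.29 to 0.067 for Phlda2 and -0.29 to 0.54 for Impact. The sign of Peg3 held in all 22 alternatives of its mean. The causes of these changes were not tested.

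Without the dye term 747 probes passed in the p14 pair, 4 of them members, against 2654 and 7, and 2390 against 3646 for the difference of the pairs. Leaving out an array gave 15 to 3728 probes and 0 to 8 members in that pair, 0 to 388 against 98 probes in the p12 pair, 3 to 10 against 3 in the TBV2 pair, 0 to 49 against 1 in the repeat pair, and 599 to 4490 for the difference. Without arrays 4 and 5, a choice made after seeing the data, these counts were 3 (0 members), 1036, 6, 2 and 1193. With the p12 pair turned, also chosen after seeing the data, 31 probes passed for the difference. In the p12 pair, leaving out an array gave -0.036 to 0.23 for H19, -0.13 to 0.036 for Igf2r, -0.15 to 0.29 for Airn and -0.12 to 0.023 for Mest. The Peg3 difference was -0.0083 without the dye term, -0.011 without arrays 4 and 5, and -0.024 to 0.10 as single arrays were left out. Paternal minus maternal stayed between -0.14 and 0.14 in the 2 turned settings and in the leave-one-out settings. It moved by less than the SD between pairs, 0.21, in all 20 alternatives. That SD is wide because the p14 and p12 pairs disagreed, at 0.21 and -0.20. With 3 pairs, leaving out a pair cannot move the mean by more than the SD, so this does not show the value to be stable. The table carries no intensities, so signal over background is not known.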
